A study of Mus musculus with 6 samples.

Results

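Microglia are the resident macrophages of the brain tissue, and border macrophages live in the meninges, around vessels and in the choroid plexus. The 31 genes described here are known from these cells, out of 32564 genes quantified. They were chosen by name, with earlier results of these data known, in 4 groups: 7 homeostatic microglia genes, 16 pan-myeloid genes, 5 border macrophage genes and 3 activation genes. All 31 were found in the annotation, with 108 transcripts whose estimated counts and TPM, a level scaled for transcript length and library size, were summed per gene.

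The libraries came from cells sorted by flow cytometry as quiescent neural stem cells (qNSCs) from the subependymal zone, the stem cell niche beside the lateral ventricles. All 6 came from gfap:GFP mice of the strain labelled C56BL/6J, in which the promoter of Gfap, a gene of astrocytes and stem cells, drives green fluorescent protein. The mice were 3 months old, and cells were taken 3 days after an intraventricular injection of artificial cerebrospinal fluid (vehicle, 3 libraries) or of an antagomir, a modified oligonucleotide that blocks a microRNA, against miR-204 (3 libraries). The labels name no control oligonucleotide, and they do not say whether replicates are separate animals or pools, so a p here reflects the sample-to-sample spread alone, which can be technical.

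Microglia depend on signalling through the receptor Csf1r, and in healthy brain they express sensing genes such as Cx3cr1, P2ry12 and Tmem119. The transcription factor PU.1, made from Spi1, controls many genes of the myeloid lineage. Border macrophages share most pan-myeloid genes with microglia and are recognised by genes such as Mrc1, Cd163 and Pf4. On stimulation, or when brain tissue is dissociated, microglia are known to make chemokines such as Ccl3 and Ccl4.

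The short stretches at which PU.1 binds are known to hold the letters GAGGAA, and they are shown here as background on the members. Whether PU.1 had a part in the members' levels in any library was not tested. RefSeq promoter windows of GRCm38.p6, from 250 bases before to 50 bases after a gene's start, existed for 22 of the 31 members. Both strands were searched. GAGGAA or its reverse complement was found for 14 of the 22 (63.6%), against 31.3% of all 27025 genes with such a window, and the longer GAGGAAGT, which contains it, for 4 of the 22 (18.2%) against 3.69%. In all 14 patterns were tried, 12 of them distinct on both strands, and the 3 that were kept were chosen with their counts known. The shorter GGAAGT was found for 63.6% of the members against 26.5% of genes, TATAAA for 18.2% against 15.7% and GGGCGG for 27.3% against 38.2%. The third pattern kept, GGAA and TGAAA with any 1 base between them, is a joint site of PU.1 and interferon regulatory factors, and it was found for Cd68 alone among the members and for 0.847% of all genes. A match is a description of letters and not evidence of binding. The stretches of 30 bases below run 5′ to 3′ on the gene's strand. Capitals mark the pattern, which appears here as its reverse complement. They show the 4 members with the longer form, among them the protease gene Ctss, and 3 with the core form from the receptor, integrin and chemokine genes Trem2, Itgam and Ccl3.
Ctss, chr3:95526773-95526802, plus strand: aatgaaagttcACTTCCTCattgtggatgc
Cd53, chr3:106790125-106790154, minus strand: cactcagtctcACTTCCTCactcttctcgc
Cyth4, chr15:78597062-78597091, plus strand: ggccagggctgACTTCCTCccacagggtct
Pf4, chr5:90772414-90772443, plus strand: ttctgcagagcACTTCCTCatcctgtatcc
Trem2, chr17:48346349-48346378, plus strand: agcctcctttccTTCCTCcctccctcacgc
Itgam, chr7:128062613-128062642, plus strand: tctcatagctttTTCCTCatacttctctgt
Ccl3, chr11:83649394-83649423, minus strand: cccggattccatTTCCTCatctgctagggc
The pattern began 2 bases before the annotated start of Ctss, 10 before that of Pf4, and 7 and 27 bases after those of Cd53 and Cyth4. It began 40 bases before the start of Trem2, 15 before that of Itgam and 33 before that of Ccl3. Pf4 was near the limit of detection in all 6 libraries while Ctss ranked first among the members, so genes with the same letters had very different levels.

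Depth was 14866453 to 19694409 estimated counts per library, and 17180 to 17975 genes had at least 1 count. Levels within a gene are given as CPM (counts scaled to a common library size, with TMM factors), on which 3 counts correspond to 0.152 to 0.201, a floor that covers counting error only. A negative log2 fold change, from edgeR, means less in the antagomir libraries. Of the members, 30 passed the filter on low counts, and Pf4 did not. The 12 stem cell and astrocyte genes summed to 4922 to 7015 TPM in the 6 libraries.

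Transcripts of microglia were present in every library, at a low level in 5 and a high one in vehicle replicate 1. Summed over the 31 members, the level was 2611 TPM in vehicle replicate 1, 324 in replicate 2 and 209 in replicate 3. It was 215, 273 and 417 TPM in antagomir replicates 1, 2 and 3. Vehicle replicate 1 was 6.27 times the highest of the other 5 libraries, which differed among themselves by 2.00 times, and the groups overlapped. The members made up 0.261% of all TPM in vehicle replicate 1 and 0.0209 to 0.0417% in the other libraries. In such bulk samples more cells of a type and more RNA per cell cannot be told apart.

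**Figure D1:**
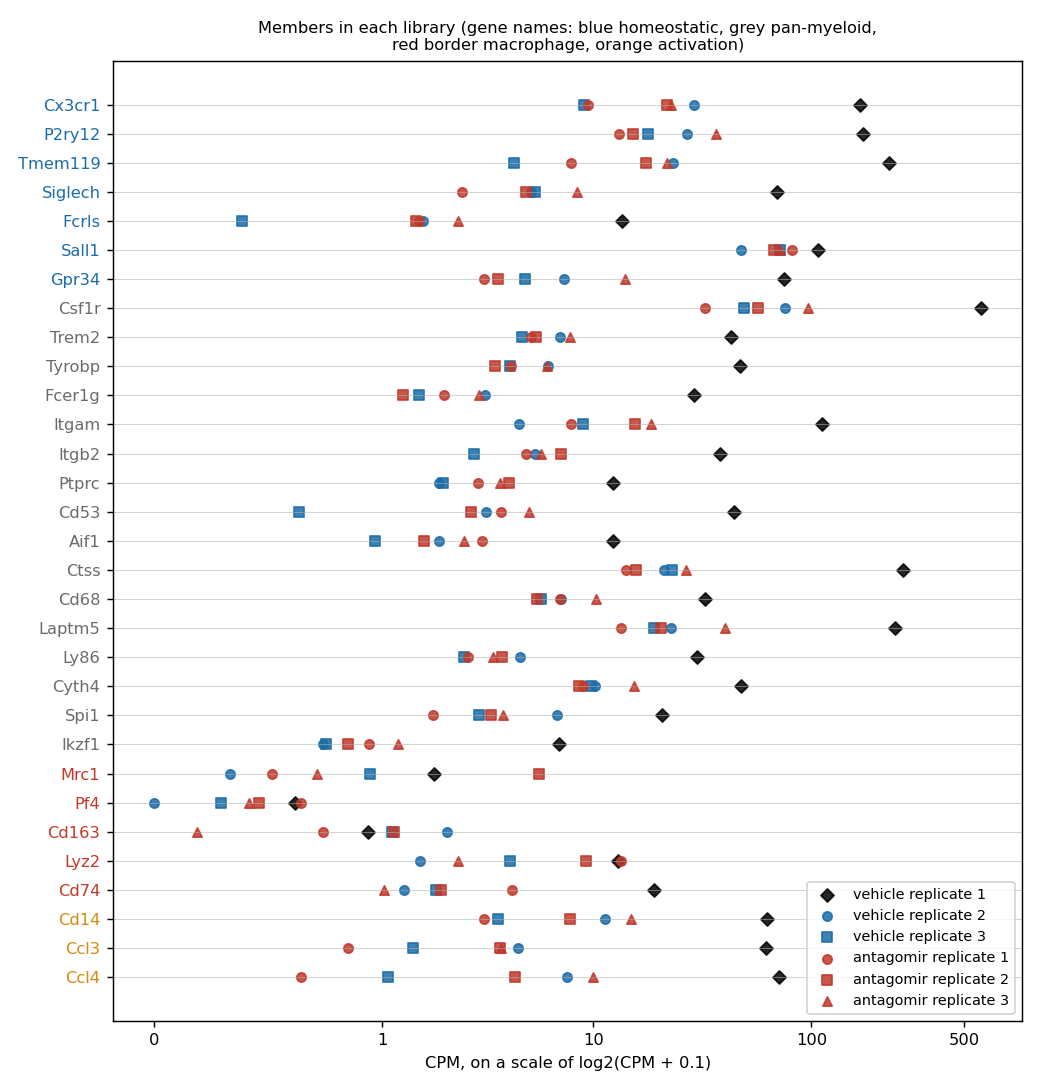
Level of each of the 31 members (rows) in each of the 6 libraries (points), in CPM on a scale of log2(CPM + 0.1). Vehicle replicate 1 (black) is the highest library for 27 members, and vehicle (blue) and antagomir (red) points are mixed among the other 5 libraries.

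No member passed the test between groups. With edgeR's quasi-likelihood test and Benjamini-Hochberg adjustment over 15012 genes, 0 of 30 members were called, the smallest adjusted p being 0.949, and 0% of all genes tested were called. Limma-voom called 0 of 30, and DESeq2 called 0 of the 25 to which it gave an adjusted p, the other 5 being Siglech, Gpr34, Itgam, Ctss and Laptm5. In edgeR 28 members were lower and 2 higher after the antagomir, with a median log2 fold change of -1.68, against 7640 lower and 7372 higher and a median of -0.01 over all genes tested. The members' median was smaller with limma-voom (-0.89), with limma on log2(TPM + 1) (-0.84) and with the replicate number as a block (-0.85). At an unadjusted p under 0.05 the count was 5 members lower (Tyrobp, Fcer1g, Ctss, Spi1 and Ccl3) and 0 higher, where 1.93% of all genes were lower and 2.18% higher. In none of the 30 did the 3 antagomir libraries all lie below, or all above, the 3 vehicle libraries, which 5.45% and 5.07% of all genes tested did.

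Without vehicle replicate 1 the direction did not hold. On the remaining 5 libraries 11 members were lower and 19 higher, with a median log2 fold change of 0.20. None of the 30 had an unadjusted p under 0.05 in edgeR in either direction, where 2.02% of all genes tested were lower and 5.35% higher, and 0 members and 0 genes were called. For 17 of the 30 members the sign turned.

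**Figure D2:**
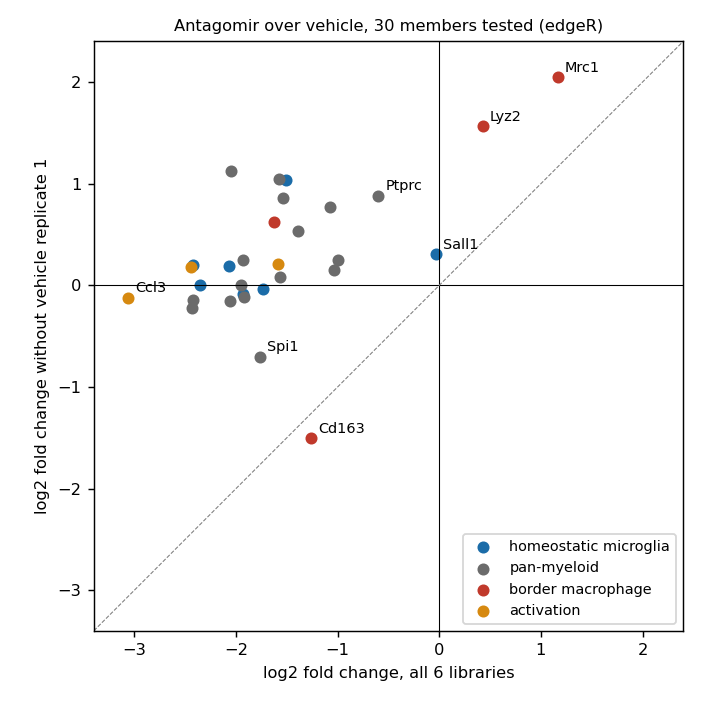
The log2 fold change of antagomir over vehicle for the 30 members tested, fitted on all 6 libraries (horizontal) and without vehicle replicate 1 (vertical). Most points lie well below 0 on the horizontal axis and near 0 on the vertical one. Mrc1 and Lyz2 lie above 0 on both and Cd163 and Spi1 below 0 on both.

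How far vehicle replicate 1 stood apart was measured gene by gene, as its CPM over the highest of the other 5 libraries, a measure chosen after the values were seen. It was the highest library for 27 of the 31 members, where it was for 16.7% of all genes tested. At 4 times or more it stood out for 22 of the 30 members tested, where 0.846% of all genes tested (127 genes) did. Of those 127 genes, 22 were members and 13 came from a list of other microglia genes. A list of microglial activation and disease genes held 5 of them, and a list of interferon response genes 6. The members and lists were chosen with earlier results known, so these counts are a description and not a test. Measured the same way, each of the other libraries stood out for 0 members and for 0 to 6 genes. The 8 tested members under 4 times were Sall1, Ptprc, Spi1, Cyth4, Cd68, Mrc1, Cd163 and Lyz2. Just inside the limit were Aif1 at 4.05 and Cd14 at 4.22, and just outside were Cd68 at 3.17 and Cyth4 at 3.11.

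**Figure D3:**
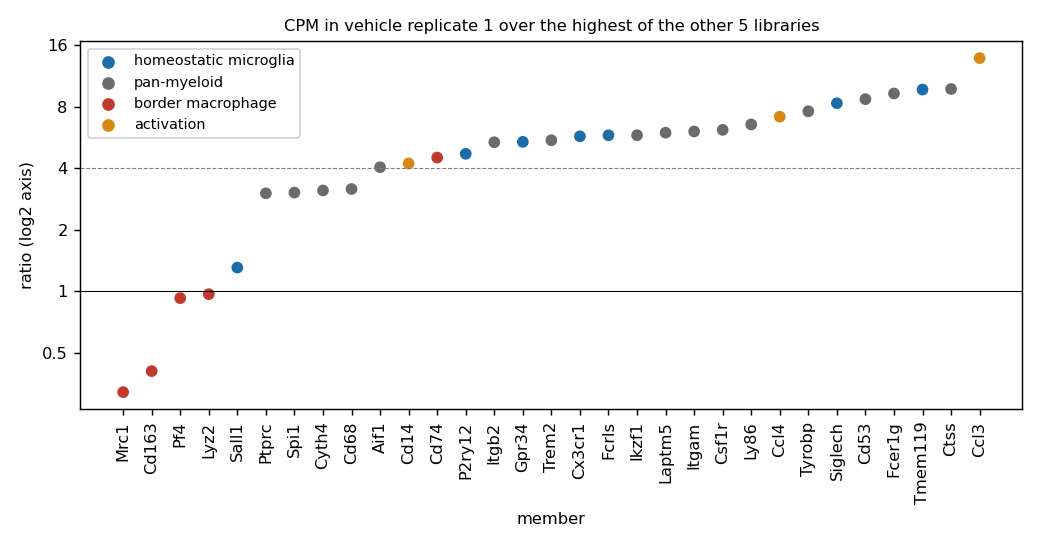
CPM in vehicle replicate 1 over the highest of the other 5 libraries for each of the 31 members, on a log2 axis, with lines at 1 and 4. Values run from 0.320 for Mrc1 to 13.9 for Ccl3, and the border macrophage genes other than Cd74 lie below 1.

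The homeostatic genes followed this pattern, Sall1 excepted. Tmem119, a membrane protein that marks microglia, was at 227, 23.3 and 4.27 CPM in vehicle replicates 1 to 3 and at 7.91, 17.5 and 21.9 in antagomir replicates 1 to 3. One vehicle library was thus the highest of the 6 and another the lowest. Its log2 fold change was -2.42 (SE 1.17, edgeR adjusted p = 0.949) over all libraries and 0.20 without vehicle replicate 1.

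Cx3cr1, the receptor for the neuronal chemokine Cx3cl1 (chr9:119901616-120069879, minus strand), was at 167, 29.2 and 9.04 CPM in the vehicle libraries and 9.43, 21.8 and 22.7 in the antagomir libraries. All 3 antagomir values lie between those of vehicle replicates 2 and 3. P2ry12, the purinergic receptor with which microglial processes sense ATP and ADP, was at 172, 27.0 and 17.8 CPM against 13.1, 15.3 and 36.5. The log2 fold change was -1.93 (SE 0.91) for Cx3cr1 and -1.74 (SE 0.83) for P2ry12, and without vehicle replicate 1 it was -0.08 and -0.04.

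Siglech, a sialic acid receptor, was at 69.98, 5.14 and 5.38 CPM against 2.43, 4.89 and 8.39. Gpr34, a lysophospholipid receptor, was at 75.2, 7.34 and 4.82 CPM against 3.10, 3.61 and 14.0. Fcrls, an Fc receptor-like gene, was the scarcest of the group, at 13.5, 1.59 and 0.152 CPM against 1.52, 1.47 and 2.33. Its 0.152 CPM in vehicle replicate 3 is 3 counts, which is the floor. In the other 5 libraries the order among them changed from gene to gene, with antagomir replicate 3 highest for all 3.

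Sall1, a transcription factor of microglia that is also known from neural progenitors, differed from the rest of its group. It was at 107, 47.8 and 71.7 CPM in the vehicle libraries and 81.8, 67.4 and 71.6 in the antagomir libraries. Vehicle replicate 1 was 1.30 times the next library, and the other 5 spanned 1.71 times, the log2 fold change being -0.04 (SE 0.27). On the TPM scale Sall1 was 0.131 times Csf1r in vehicle replicate 1 and 0.462 to 1.83 times in the other 5 libraries. From which cells its transcripts came was not tested.

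Among the pan-myeloid receptors and adaptors, Csf1r, the receptor for Csf1 and Il34, had the highest level. It was at 596, 75.5 and 49.2 CPM in the vehicle libraries and 32.5, 57.1 and 96.6 in the antagomir libraries, or 240 ± 309 against 62.1 ± 32.3 (SD, n = 3 each). The vehicle SD is larger than the mean because 1 library holds most of the signal. Its log2 fold change was -1.95 (SE 0.89, edgeR adjusted p = 0.949), and -0.00 without vehicle replicate 1.

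Tyrobp, the signalling adaptor also called DAP12 (chr7:30413760-30417585, plus strand), was at 47.0, 6.18 and 4.11 CPM against 4.14, 3.48 and 6.13. Trem2, a lipid receptor that signals through Tyrobp, was at 43.0, 7.03 and 4.67 CPM against 5.17, 5.42 and 7.83. Fcer1g, the common gamma chain of Fc receptors, was at 29.0, 3.12 and 1.52 CPM against 2.01, 1.27 and 2.95. In the other 5 libraries the sums per gene of the receptor Trem2 and its adaptor Tyrobp spanned 1.68 and 1.77 times, the narrowest ranges of this group. Both overlapped between treatments. The sum for Trem2 includes a retained intron transcript with 22.3 to 43.3 counts in those libraries, 43.3 of 92 in vehicle replicate 3. Its narrow span rests in part on that transcript. The log2 fold change was -2.06 (SE 0.87) for Tyrobp and -2.43 (SE 1.04) for Fcer1g, with an edgeR adjusted p of 0.949 for both, and -0.16 and -0.15 without vehicle replicate 1.

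The integrin chains Itgam (CD11b) and Itgb2 (CD18), which pair as complement receptor 3, were also highest in vehicle replicate 1. Itgam was at 112, 4.53 and 8.99 CPM against 7.91, 15.5 and 18.4, and Itgb2 at 38.1, 5.38 and 2.79 CPM against 4.87, 7.09 and 5.73. Of the other 5 libraries, antagomir replicate 3 was highest for Itgam and antagomir replicate 2 for Itgb2. Without vehicle replicate 1 the log2 fold changes were 1.04 and 0.54 (edgeR adjusted p = 0.689 and 0.820).

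Ptprc (CD45), the pan-leukocyte phosphatase, was at 12.3, 1.90 and 1.98 CPM against 2.92, 4.08 and 3.69. The 3 antagomir values exceed those of vehicle replicates 2 and 3 and lie under that of replicate 1. Cd53, a leukocyte tetraspanin, was at 44.0, 3.18 and 0.355 CPM against 3.71, 2.68 and 5.05.

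Ctss (cathepsin S, chr3:95526786-95556403, plus strand), a lysosomal protease, was the most abundant member per length, with the first mean rank by TPM over the 6 libraries. Csf1r, Laptm5, Tyrobp and P2ry12 came next. Ctss was at 262, 21.2 and 23.0 CPM in the vehicle libraries and 14.2, 15.8 and 26.8 in the antagomir libraries. Vehicle replicate 1 was 9.79 times the highest of the others, which spanned 1.89 times. Its log2 fold change was -2.43 (SE 0.94, edgeR adjusted p = 0.949), and -0.22 without vehicle replicate 1.

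Laptm5, a lysosomal membrane protein of blood cells, was at 241, 22.9 and 19.0 CPM against 13.4, 20.5 and 40.3. Cd68, another lysosomal membrane protein of phagocytes, was at 32.5, 7.09 and 5.74 CPM against 6.995, 5.49 and 10.3. In both genes antagomir replicate 3 was next to vehicle replicate 1. Aif1 (Iba1), an actin-binding protein, Ly86, a partner of the receptor Cd180, and Cyth4, an exchange factor for ARF GTPases, had 4.05, 6.56 and 3.11 times as much in vehicle replicate 1 as in the highest of the other libraries.

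Of the transcription factors, Spi1 (PU.1, chr2:91082390-91115756, plus strand) was at 20.6, 6.79 and 2.94 CPM in the vehicle libraries and 1.76, 3.35 and 3.80 in the antagomir libraries. It was lower after the antagomir both over all 6 libraries (log2 fold change -1.77, SE 0.72, edgeR adjusted p = 0.949) and without vehicle replicate 1 (-0.70, edgeR adjusted p = 0.806). Ikzf1, a lymphoid and myeloid factor, was at 6.92, 0.489 and 0.508 CPM against 0.852, 0.669 and 1.19. The values of Ikzf1 outside vehicle replicate 1 rest on 8 to 21 counts.

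The border macrophage genes other than Cd74 did not follow the pattern. Mrc1, the mannose receptor (chr2:14229392-14332057, plus strand), was at 1.80, 0.122 and 0.863 CPM in the vehicle libraries and 0.243, 5.62 and 0.454 in the antagomir libraries. Antagomir replicate 2 was the highest, with 84 counts, and vehicle replicate 1 had 32. Cd163, the haemoglobin scavenger receptor, was at 0.844, 2.08 and 1.12 CPM against 0.487, 1.14 and 0.0567, with vehicle replicate 2 the highest at 34 counts. Pf4, platelet factor 4, had 6, 0 and 2 counts in the vehicle libraries and 6, 3 and 3 in the antagomir libraries, so no library was more than 3 counts above the floor of 3.

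Lyz2, lysozyme M, was at 12.99, 1.53 and 4.11 CPM in the vehicle libraries and 13.4, 9.30 and 2.33 in the antagomir libraries. Antagomir replicate 1, the lowest library for 10 members, was the highest for Lyz2, just above vehicle replicate 1, and without it the log2 fold change turned from 0.43 to -0.10. The gene has a close copy, Lyz1, so the division of reads between them is uncertain. Cd74, the invariant chain of MHC class II, alone of the group was highest in vehicle replicate 1, at 19.0, 1.28 and 1.83 CPM against 4.197, 1.94 and 1.02. Among the other libraries Cd74 was highest in antagomir replicate 1 and lowest in antagomir replicate 3. The group's median log2 fold change over its 4 tested genes was -0.42, and 1.10 without vehicle replicate 1, with 0 called either way. Without antagomir replicate 2 the log2 fold change of Mrc1 turned from 1.17 to -1.40.

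The activation genes had the highest ratio of vehicle replicate 1 to the next library on their summed TPM, 7.49, with single genes from 4.22 (Cd14) to 13.9 (Ccl3). Ccl3 (MIP-1 alpha, chr11:83647844-83649355, minus strand) was at 61.9, 4.46 and 1.42 CPM in the vehicle libraries and 0.669, 3.68 and 3.74 in the antagomir libraries. The neighbouring chemokine gene Ccl4 (MIP-1 beta, chr11:83662584-83664683, plus strand) was at 71.0, 7.58 and 1.07 CPM against 0.365, 4.35 and 9.92. Both were lowest in antagomir replicate 1 and next lowest in vehicle replicate 3. Cd14, the co-receptor for lipopolysaccharide, was at 62.8, 11.4 and 3.61 CPM against 3.10, 7.83 and 14.86, with the same 2 libraries lowest. Ccl3 had the most negative log2 fold change of the members, -3.06 (SE 1.30, edgeR adjusted p = 0.949), and -0.12 without vehicle replicate 1.

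Within a library, the makeup of the myeloid signal was compared on the TPM scale. The homeostatic genes took 23.2 to 28.0% of the members' summed TPM in each of the 6 libraries, and 14.0 to 22.3% with Sall1 left out of the group's sum. The pan-myeloid genes took 53.6 to 63.2%. The activation genes took 17.8, 15.6 and 5.35% in vehicle replicates 1 to 3 and 3.18, 12.7 and 14.903% in antagomir replicates 1 to 3. The border macrophage genes took 1.87, 1.60 and 4.65% and 13.6, 7.56 and 1.504%. Vehicle replicate 1 was thus inside the range of the other libraries in 2 of the groups, below them for the homeostatic group and above them for the activation group. With Sall1 left out its homeostatic share was 21.9%, inside the range of the others. The groups overlapped in all 4 shares.

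**Figure D4:**
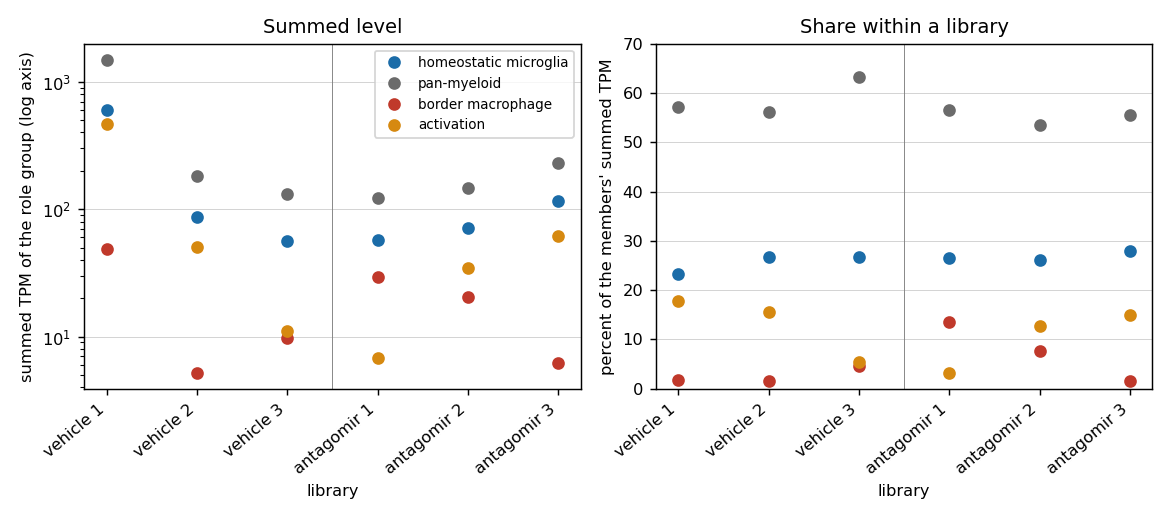
Summed TPM of the 4 groups of members in each library on a log axis (left), and the share of each group in the members' summed TPM of that library in percent (right). The level is highest in vehicle replicate 1 for all 4 groups, and the homeostatic share lies between 23.2 and 28.0%, or 14.0 and 22.3% with Sall1 left out.

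The border macrophage genes that mark these cells most clearly were far below the microglia genes. Mrc1, Pf4 and Cd163 together summed to 2.69, 0.855 and 1.07 TPM in the vehicle libraries and 2.33, 3.41 and 1.15 in the antagomir libraries. The 6 homeostatic genes other than Sall1 summed to 572, 71.2 and 33.8 TPM and 30.1, 49.5 and 93.1. The sum of the 3 was highest in antagomir replicate 2 and the homeostatic sum in vehicle replicate 1. With Lyz2 and Cd74 the 5 border genes summed to 48.8, 5.18 and 9.71 TPM and 29.3, 20.6 and 6.27, which in antagomir replicate 1 is close to the 30.1 TPM of the homeostatic genes. Of 13 further border macrophage genes 4 were tested, and their list summed to 28.2 TPM in vehicle replicate 1 and to 16.9 to 37.8 in the others. None of the 4 tested genes was highest in antagomir replicate 2. H2-Ab1 was highest in vehicle replicate 2 (15.2 CPM) and Folr2 in vehicle replicate 3 (3.71 CPM). Stab1 and Maf were highest in vehicle replicate 1 (12.7 and 6.08 CPM). F13a1, a monocyte and macrophage transglutaminase singled out after its values were seen, had 74 counts in antagomir replicate 2 and 0 to 8 in each of the others.

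Other genes of microglia were taken from lists written beside the members. All 20 tested genes of 21 further microglia genes were lower after the antagomir, with 0 called, 4 at an unadjusted p under 0.05 in edgeR, and a median log2 fold change of -1.65. Of all 15012 genes tested 7640 were lower, and 1.93% were lower at that p. Without vehicle replicate 1, 9 of the 20 microglia genes were lower and 11 higher and their median was 0.01. C1qa, C1qb and C1qc, the chains of complement C1q, were at 169, 161 and 161 CPM in vehicle replicate 1. They were at 8.43 to 17.7, 10.3 to 20.9 and 7.26 to 14.1 in vehicle replicates 3 and 2. In the antagomir libraries they were at 5.90 to 19.3, 5.35 to 14.5 and 6.02 to 21.9. Mertk, a phagocytic receptor also known from astrocytes, was 1.42 times as high in vehicle replicate 1 as in the next library.

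Of 18 genes of microglial activation and disease 13 were tested, of which 11 were lower and 2 higher, 0 were called and the median log2 fold change was -1.41. Without vehicle replicate 1, 4 were lower and 9 higher, with a median of 0.28. Cd9, a tetraspanin that many cells make, had the highest level and was nearly even, at 507 to 676 CPM in the 6 libraries, and Axl, a receptor that takes part in clearing dying cells, also known from astrocytes, was at 127 to 191. Il1a, the cytokine interleukin 1 alpha, was at 39.7 CPM in vehicle replicate 1 and 0 to 5.75 in the others. Tnf, named after its values were seen, had 638 counts in vehicle replicate 1 and 12 to 80 in the others.

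The ligands of microglial receptors were measured in the same libraries. Csf1, a ligand of Csf1r, was at 83.9, 83.2 and 72.7 CPM in the vehicle libraries and 47.75, 82.2 and 80.0 in the antagomir libraries. Cx3cl1, the ligand of Cx3cr1, was at 82.0, 122 and 121 CPM against 90.03, 150 and 98.4. Il34, the other ligand of Csf1r, was at 0.394, 2.45 and 2.39 CPM against 1.46, 0.669 and 0.227. In each of the 3 the groups overlapped. Of the 7 genes of this list 2 were highest in vehicle replicate 1, Csf1 by 1.01 times and Tgfb1, a growth factor that microglia need, by 2.69 times, at 12.8 CPM against 0.863 to 4.76. Of the 7 genes 5 were lower and 2 higher, with 0 called and a median log2 fold change of -0.19.

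Other lists showed what else stood apart in vehicle replicate 1. The 17 interferon response genes summed to 3246 TPM there, and to 1064 and 1122 in the other vehicle libraries and 708 to 953 in the antagomir libraries. Of 16 tested, 15 were lower, with 0 called. At an unadjusted p under 0.05 in edgeR 10 were lower, where 1.93% of all genes tested were. In 8 of the 16 all antagomir libraries lay below all vehicle libraries, which 5.45% of all genes tested did. The median log2 fold change was -1.23, and -0.38 without vehicle replicate 1. Without that library 12 were lower and 4 higher. Of these, 2 were lower at an unadjusted p under 0.05 in edgeR, where 2.02% of all genes tested were. B2m, the light chain of MHC class I, was at 221, 48.8 and 62.9 CPM against 33.4, 32.8 and 38.2, so all 3 antagomir values lie under all 3 vehicle values. The 6 red cell genes summed to 3387 TPM in vehicle replicate 1, 460 and 1342 in the other vehicle libraries, and 49.6 to 1078 in the antagomir libraries. The part of blood, or of an interferon response, in the level of the members was not tested.

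Several defining markers of other leukocytes were at 0, and others had low counts. Ly6g, Retnlg and Camp of neutrophils and Cd3e and Ncr1 of T cells and natural killer cells had 0 counts in all 6 libraries. S100a9 had 18 counts in antagomir replicate 2 and 0 in the others. Cd3d of T cells had 8 to 31 counts per library and Ms4a1 of B cells 6 to 31, with antagomir replicate 2 highest for the first and vehicle replicate 3 for the second. Cd4, which macrophages can also express, had 194 counts in vehicle replicate 1 and 17 to 118 in the others. The 12 monocyte and neutrophil genes summed to 37.3 TPM in vehicle replicate 1 and 0.993 to 14.6 in the others. The only one tested was Csf3r, a cytokine receptor gene that microglia also express, at 50.9 CPM against 1.07 to 6.97. Csf3r alone held 29.4 of the 37.3 TPM in vehicle replicate 1, and 4.75 of the 14.6 TPM in antagomir replicate 2. The 11 lymphocyte genes summed to 4.64 to 9.26 TPM in the vehicle and 5.24 to 10.02 in the antagomir libraries, and the 10 endothelial genes to 7.996 to 17.3 and 4.62 to 11.4. Neither list was highest in vehicle replicate 1.

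Dissociation can induce immediate early genes, and the summed level of a list of them was not highest in vehicle replicate 1. From which cells these transcripts came was not tested, nor was a part of dissociation in the level of the members. The 14 genes of that list summed to 9299, 7684 and 9242 TPM in the vehicle libraries and 7699, 13203 and 16606 in the antagomir libraries. All 14 were higher after the antagomir, with 0 called, 3 at an unadjusted p under 0.05 in edgeR, and a median log2 fold change of 0.48. Of all 15012 genes tested 7372 were higher, and 2.18% were higher at that p. Fos, a component of the AP-1 factor, was at 2581, 1902 and 2661 CPM against 2061, 3373 and 4619. Antagomir replicate 3 was highest for Fos and, of the 5 libraries other than vehicle replicate 1, for 15 of the 31 members, while antagomir replicate 1 was the lowest of all 6 for 10 members.

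**Figure D5:**
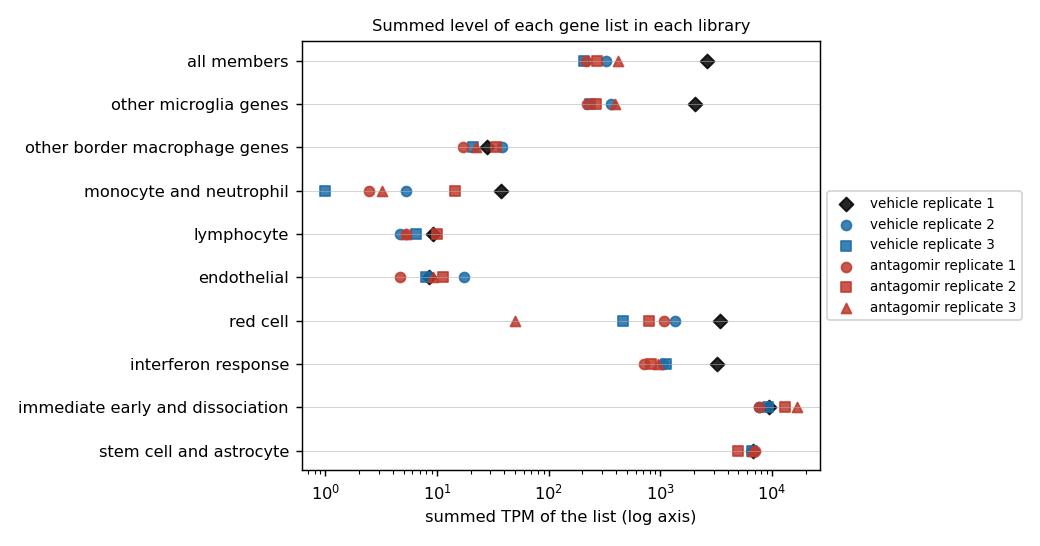
Summed TPM of the members and of 9 other gene lists in each library, on a log axis. Vehicle replicate 1 (black) stands to the right for the members, the other microglia genes, the interferon genes, the red cell genes and the monocyte and neutrophil genes, and among the others for the remaining lists. For the monocyte and neutrophil genes, Csf3r held 29.4 of the 37.3 TPM in that library.

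The antagomir is directed against miR-204, whose mature sequence in RefSeq (chr19:22750610-22750631, plus strand, GRCm38.p6) is shown with its seed, bases 2 to 8, in capitals because the seed sets which transcripts it can pair with.
miR-204-5p: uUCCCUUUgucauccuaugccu
A match to these 7 bases was found in the annotated 3′ UTR of the most abundant transcript of 3 of the 31 members (9.68%), namely P2ry12, Fcer1g and Cd74, against 13.8% of 14354 tested genes. All 3 were lower after the antagomir over the 6 libraries, with log2 fold changes of -1.74, -2.43 and -1.62. Without vehicle replicate 1 they were at -0.04, -0.15 and 0.63. They thus lie within the range of the members without a match.

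Transcript models were a limit for some members. Most counts of Csf1r (95.4%), Tmem119 (99.9%) and Fcer1g (99.4%) fell to 1 transcript over the 6 libraries. For Aif1, Ptprc and Siglech the leading transcript took 42.2, 48.2 and 41.1%, and its share ran from 19.9 to 100% for Aif1 between libraries. Sums per gene are therefore firmer than any single transcript of these genes.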

How the data were processed

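A PicoPure kit gave the RNA and SMART-Seq v4 the cDNA, per the labels' protocols. The latter kit does not mark strand. Tools named in the submitters' processing notes are kallisto and sleuth, with mm10 as the build. No version is given in these sources. The deposited estimated counts are kallisto's fragments per transcript, not normalized, and the deposited TPM values are scaled for length and to the same total in each library, per the file headers. Transcripts were matched to GENCODE M21 (GRCm38) by identifier (98294 of 99567, 98.7%). The 1273 unmatched, with 0.524 to 0.586% of counts, were left out. Counts were summed per gene and rounded. Groups came from the samples' titles, and the treatment group label gives the same ones. The treatment protocol field names the antagomir for all 6 samples and was not used.

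The test was edgeR 4.0.16 under R 4.3.3 (TMM, filterByExpr with a minimum count of 10, robust quasi-likelihood, group as the only term, 6 libraries) with Benjamini-Hochberg adjustment over 15012 genes at 0.05. The biological coefficient of variation was 36.2%. The chi-square per gene between libraries was 23.6 to 98.6 over all pairs, so none was a repeat of another. Alternatives were other scaling factors and filters, DESeq2 1.42.0, limma 3.58.1 (voom, and on log2(TPM + 1)), a replicate block and leaving out each library. The members and lists were chosen with earlier results of these data known. All 31 members are named, and of each other list at most 6 tested genes with the highest mean CPM, plus Csf1, Il34, Cx3cl1 and the C1q genes. F13a1, Tnf, S100a9 and the markers at 0 counts lie outside this rule and were named after their values were seen. Some genes of the other lists are not reported here.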

Additional observations from a re-analysis of the deposited data

How the results depend on the processing

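The count of genes called was 0 of 15012 and stayed 0 under the alternatives other than DESeq2, which called 1 gene, no member. The median log2 fold change of the border macrophage genes, -0.42 on 4 genes, was 0.44 with no filter on low counts, which adds Pf4. The median of all members, -1.68, was -0.89 with limma-voom, -0.84 with limma on log2(TPM + 1) and -0.85 with the replicate block. With limma-voom the log2 fold changes of Fcrls, Sall1 and Cd53 turned to 0.28, 0.032 and 0.084, and with limma on log2(TPM + 1) that of Sall1 to 0.10. With the replicate block 0 genes were called, 1284 had an unadjusted p under 0.05 against 616 without it, and Sall1, Ptprc and Mrc1 were at 0.033, 0.030 and -0.055. No paired reading was made, since the same-numbered libraries' deviations correlated at 0.19, 0.075 and 0.028, not all over 0.1. Those of differently numbered libraries correlated at -0.186 to 0.140. Whether the libraries were paired is not settled by these values.

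Leaving out each library in turn gave 11 to 29 members lower (28 with all). The lowest and highest medians were -2.14 and 0.20 for all members, -2.45 and 0.19 for the homeostatic, -2.12 and 0.20 for the pan-myeloid, -1.45 and 1.10 for the border macrophage and -3.38 and 0.18 for the activation genes. Every highest value is that without vehicle replicate 1. The ranges for single members below all cross 0. The 11 tested members not listed were lower without vehicle replicate 1 as well, with log2 fold changes from -1.51 (Cd163) to -0.00 (Csf1r). The lowest and highest log2 fold changes were -2.98 and 0.20 for Tmem119, -2.07 and 1.04 for Fcrls, -0.28 and 0.31 for Sall1, -3.10 and 0.19 for Gpr34, -2.01 and 0.078 for Trem2, -2.11 and 1.04 for Itgam, -1.87 and 0.54 for Itgb2, and -1.001 and 0.88 for Ptprc. They were -2.61 and 1.13 for Cd53, -1.56 and 0.77 for Aif1, -1.37 and 0.25 for Cd68, -2.47 and 0.25 for Laptm5, -1.39 and 0.15 for Cyth4, -2.02 and 0.86 for Ikzf1, -1.40 and 2.05 for Mrc1, -0.10 and 1.57 for Lyz2, -2.31 and 0.63 for Cd74, -2.24 and 0.21 for Cd14, and -3.50 and 0.18 for Ccl4. Members lower at an unadjusted p under 0.05 in edgeR were 5 with all libraries. Leaving out vehicle replicate 2 gave 12 and leaving out vehicle replicate 3 gave 19. Among all genes tested, 664 of 15400 and 495 of 15393, respectively, had such a p in either direction. With all libraries 616 of 15012 had. Both of these fits kept vehicle replicate 1, in a smaller vehicle group. The count of members was 0 without vehicle replicate 1, antagomir replicate 1 or antagomir replicate 2. It was also 0 with limma-voom and with the replicate block. The cause of these changes was not tested.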
